A study of Homo sapiens with 6 samples.

Results

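The fibroblast growth factor (FGF) ligands and FGF receptors were followed as 10 genes in human induced pluripotent stem cells (hiPSCs), namely the secreted ligands FGF2, FGF4, FGF8, FGF17 and FGF19, the intracellular family member FGF13, and the receptors FGFR1, FGFR2, FGFR3 and FGFR4. Each gene was found by matching its Ensembl identifier to its GENCODE 44 symbol, and all 10 were present among the 19977 genes of the count tables and among the 16505 genes that had enough reads to be tested. The cells were the wild type NCRM-1 line, an established hiPSC line, grown as suspended aggregates in stirred bioreactors for 4 days, with 50% of the medium exchanged on the second day. The control libraries came from cells in Essential 8 (E8) alone, a defined medium for pluripotent stem cells that carries recombinant FGF2 protein. The PEG and HS libraries came from cells in E8 with 10 mg/ml polyethylene glycol (PEG) and 0.1 µg/ml heparin sodium salt (HS), the additive pair that the study chose for aggregate stability, growth and pluripotency. All cultures were seeded from dissociated single cells.

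There were 3 libraries in each medium, and they differed in total count by little, from 26991279 to 36185138 reads assigned to genes. The label text named 1 bioreactor for each medium, so medium cannot be told apart from vessel. The p-values below measure only the spread between these libraries, which may be technical. PEG and HS were always given together, so their separate effects cannot be told apart either. The protocol text attached to the control libraries also described the additives, and the group of each library was taken from its own treatment label. All 12 genes of a pluripotent stem cell marker list were detected, with a summed level of 10690 to 10900 CPM, the read count scaled to library size, with the additives and 10790 to 10990 CPM in E8 control. Within that near-equal sum, 5 of the 12 were called higher with the additives, 4 lower and 3 not called, by the test described below. They ran from NANOG at 0.55 to SOX2 at -0.59 on the log2 scale. Other genes hold 38.2% of the 31-base sequences of NANOG, 45.1% of those of POU5F1 and 47.6% of those of TDGF1. Reads of these marker genes may therefore not be fully separated from those of other genes. Over all tested genes, 12.2% were called higher and 13.1% lower. In these bulk libraries, fewer cells of a type and less RNA per cell cannot be told apart.

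FGFs are secreted proteins that bind receptor tyrosine kinases on the cell surface, and heparan sulfate or heparin holds ligand and receptor together in the signalling complex. The activated receptor passes the signal through the docking protein FRS2 and the RAS, RAF, MEK and ERK relay, which switches on feedback inhibitors such as the Sprouty proteins. Human pluripotent stem cells depend on FGF2 for self-renewal, and the same pathway guides neural and mesodermal choices when they differentiate.

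Expression of the FGF system differed between the media in both directions. Of the 10 genes, 3 were higher in PEG and HS (FGF19, FGF13 and FGFR4), 5 were lower (FGFR3, FGF4, FGF2, FGFR2 and FGFR1), and FGF8 and FGF17 did not pass the test. Tests used the quasi-likelihood method of edgeR, with adjustment by Benjamini-Hochberg over all tested genes and a call at an adjusted p under 0.05. It called 25.3% of all tested genes, of which 12.2% were higher and 13.1% lower. The 3 libraries of one medium lay wholly above or below those of the other for 8 of the 10 genes, compared with 39.3% of all tested genes (19.5% higher and 19.8% lower); of these 8, 3 were higher and 5 lower. The median log2 fold change was -0.40 for the 10 genes and 0.003 for all tested genes. The 10 genes were chosen with earlier results of these data known, so these counts describe the chosen genes only. Of the other FGF genes, 14 were tested and 1 was called. FGF4 and FGFR3 also passed a stricter rule, a p under 0.001 with an absolute log2 fold change over 1.5, which 0.727% of tested genes met.

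**Figure D1:**
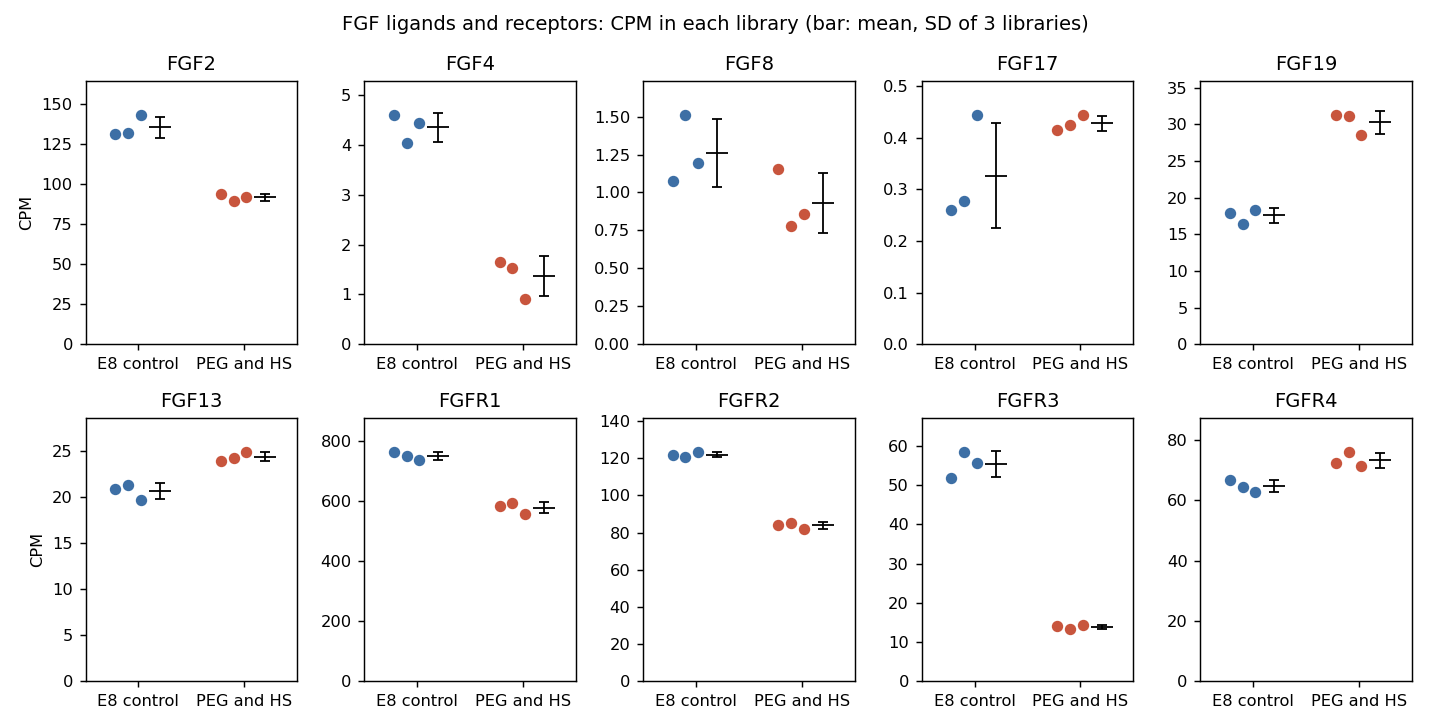
CPM of the 10 FGF genes in each library, with an axis from 0 in each panel; points are the 3 libraries of E8 control (blue) and of PEG and HS (red), and the bar beside them gives the mean and SD. The points of the media are separate in every panel except FGF8 and FGF17.

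Among the secreted ligands, the clearest losses were in FGF4 and FGF2 and the one gain was in FGF19. FGF4, a ligand that pluripotent cells of the early embryo make themselves, lies on the minus strand of chromosome 11 from 69771022 to 69775341 (GRCh38). It had 56, 43 and 31 reads in the PEG and HS libraries and 124, 131 and 160 reads in the control libraries. Scaled to library size, its level was 1.66, 1.52 and 0.916 CPM with the additives and 4.60, 4.03 and 4.43 CPM in E8 control. All PEG and HS libraries were below all control libraries, and the lowest of them stood at 0.916 CPM. The mean was 1.37 ± 0.396 CPM (SD, n = 3) against 4.35 ± 0.29 CPM, which is 3.19-fold lower. The log2 fold change of FGF4 was -1.67 (SE 0.18; 95% interval -2.07 to -1.28; edgeR adjusted p = 6.16e-06), and 203 of the 16505 tested genes had a fold change as low or lower.

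FGF2, the ligand on which human pluripotent cultures rely, lies on the plus strand of chromosome 4 from 122826682 to 122898236. Its own transcript was measured here, not the protein supplied in the medium. It stood at 93.5, 89.4 and 91.6 CPM with the additives and at 131, 132 and 143 CPM in E8 control. The groups were well apart, and the control libraries spread more than the PEG and HS libraries. The mean of FGF2 was 91.5 ± 2.06 CPM (SD, n = 3) against 135 ± 6.46 CPM, a 1.48-fold lower level (log2 fold change -0.56, SE 0.037, edgeR adjusted p = 1.60e-08). Among the counted genes, NUDT6 overlaps FGF2 on the opposite strand over 9540 bases. Its level was 7.20 ± 0.58 CPM with the additives and 8.87 ± 0.192 CPM in control (SD, n = 3; log2 fold change -0.30, edgeR adjusted p = 0.0138). The library kit keeps strand, but the strand setting of the counting was not given in the sources used here, so reads of this pair may not be fully separated.

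FGF19, a ligand of the hormone-like FGF branch that acts best on FGFR4 with the co-receptor beta-Klotho, lies on the minus strand of chromosome 11 from 69698238 to 69704022, in the same chromosome band as FGF4. Its level was 31.2, 31.2 and 28.5 CPM with the additives and 17.9, 16.4 and 18.4 CPM in E8 control. Each PEG and HS library exceeded each control library. The means were 30.3 ± 1.57 and 17.6 ± 1.03 CPM (SD, n = 3), a 1.72-fold higher level with the additives (log2 fold change 0.78, SE 0.059, 95% interval 0.66 to 0.91, edgeR adjusted p = 9.27e-08). FGF19 therefore stood against FGF4 and FGF2 in direction, and 333 tested genes had a fold change as high or higher.

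FGF8 and FGF17, sister ligands of the subfamily that patterns the midbrain and hindbrain border, were near the limit of detection. FGF8 (chromosome 10, minus strand, 101770109 to 101780371) had 39, 22 and 29 reads in PEG and HS and 29, 49 and 43 reads in control. These are 1.16, 0.779 and 0.857 CPM against 1.07, 1.51 and 1.19 CPM, and the groups overlapped. The log2 fold change of FGF8 was -0.43 with a 95% interval from -0.97 to 0.10 (edgeR adjusted p = 0.241). FGF17 (chromosome 8, plus strand, 22042398 to 22048809) had 41 reads in all PEG and HS libraries together and 32 in all control libraries. Its level was 0.415, 0.425 and 0.443 CPM with the additives and 0.259, 0.277 and 0.443 CPM in control, where 1 control library matched the highest treated library. The log2 fold change of FGF17 was 0.36 with a 95% interval from -0.48 to 1.21 (edgeR adjusted p = 0.554).

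FGF13 belongs to the family branch that is not secreted and binds voltage-gated sodium channels inside the cell. It lies on the minus strand of chromosome X from 138614727 to 139222777. It was slightly higher in PEG and HS, at 23.9, 24.3 and 24.9 CPM against 20.9, 21.3 and 19.7 CPM in E8 control. The groups did not overlap, although they were only 1.18-fold apart. The means were 24.4 ± 0.494 and 20.6 ± 0.838 CPM (SD, n = 3; log2 fold change 0.24, SE 0.052, edgeR adjusted p = 0.00305).

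Of the 4 receptors, FGFR3 fell most, FGFR2 and FGFR1 fell by less, and FGFR4 rose slightly. FGFR3, a receptor tyrosine kinase known for its part in bone growth and in neural precursors, lies on the plus strand of chromosome 4 from 1793293 to 1808872. It had 471, 375 and 480 reads in PEG and HS and 1402, 1900 and 2012 reads in control. Its level was 14.0, 13.3 and 14.2 CPM with the additives and 52.0, 58.5 and 55.8 CPM in E8 control. The gap between the media was many times the spread inside either. The means were 13.8 ± 0.477 and 55.4 ± 3.27 CPM (SD, n = 3), a 4.01-fold lower level in PEG and HS. The log2 fold change of FGFR3 was -2.00 (SE 0.055; 95% interval -2.12 to -1.89; edgeR adjusted p = 1.14e-12), and 138 of the 16505 tested genes had a fold change as low or lower.

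FGFR2, which has epithelial and mesenchymal splice forms with different ligands, lies on the minus strand of chromosome 10 from 121478332 to 121598458. It stood at 84.1, 85.4 and 82.1 CPM with the additives and at 122, 121 and 123 CPM in E8 control. Both groups were tight and did not overlap. The means were 83.8 ± 1.68 and 122 ± 1.3 CPM (SD, n = 3), a 1.46-fold lower level (log2 fold change -0.54, SE 0.03, edgeR adjusted p = 3.12e-09). The count tables sum all transcripts of a gene, so the splice forms were not separated here.

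FGFR1, the main receptor for FGF2 in human pluripotent cells, lies on the minus strand of chromosome 8 from 38400215 to 38468834. Its level was 583, 594 and 557 CPM with the additives and 763, 750.1 and 736 CPM in E8 control. The lowest control library was well above the highest PEG and HS library. The means were 578 ± 18.9 and 749.8 ± 13.1 CPM (SD, n = 3), a 1.30-fold lower level (log2 fold change -0.38, SE 0.028, edgeR adjusted p = 9.27e-08). Among the counted genes, LETM2 overlaps FGFR1 on the opposite strand over 9313 bases. The pseudogene RPS20P22 and a noncoding RNA gene, neither of them counted, overlap FGFR1 on its own strand over 1318 and 695 bases. LETM2 had 3.11 ± 0.376 CPM with the additives and 3.71 ± 1.12 CPM in control (SD, n = 3; edgeR adjusted p = 0.388), far below FGFR1.

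FGFR4, the receptor through which FGF19 acts, lies on the plus strand of chromosome 5 from 177086905 to 177098144. It was the one receptor that was higher in PEG and HS, at 72.5, 76.1 and 71.3 CPM against 66.8, 64.5 and 62.8 CPM in E8 control. The groups did not overlap, but the gap was narrow. The means were 73.3 ± 2.49 and 64.7 ± 2.01 CPM (SD, n = 3; 1.13-fold; log2 fold change 0.18, SE 0.037, 95% interval 0.10 to 0.26, edgeR adjusted p = 0.00205).

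**Figure D2:**
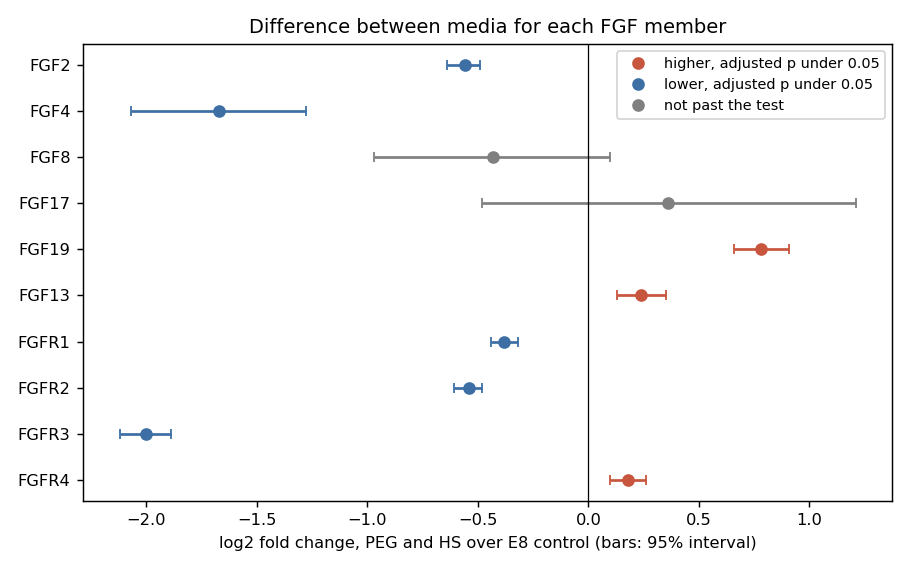
Log2 fold change of PEG and HS over E8 control for the 10 FGF genes; points are the edgeR estimates, bars their 95% intervals, and colour gives the call at an adjusted p under 0.05. FGFR3 at -2.00 and FGF4 at -1.67 lie farthest below 0, FGF19 at 0.78 lies farthest above it among called genes, and the intervals of FGF8 and FGF17 include 0.

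The receptors with an entry in the RefSeq promoter table are shown by the DNA just upstream of their annotated start, where transcription factors act. They were FGFR3 (down), FGFR2 (down by less) and FGFR4 (up). The stretches were taken from the RefSeq promoter table (GRCh38.p14), written 5′ to 3′ on the strand of the gene, and end just before the first transcribed base. Capitals mark GGGCGG or its reverse complement CCGCCC, the core of the GC box.
FGFR3 chr4:1793043-1793292, plus strand: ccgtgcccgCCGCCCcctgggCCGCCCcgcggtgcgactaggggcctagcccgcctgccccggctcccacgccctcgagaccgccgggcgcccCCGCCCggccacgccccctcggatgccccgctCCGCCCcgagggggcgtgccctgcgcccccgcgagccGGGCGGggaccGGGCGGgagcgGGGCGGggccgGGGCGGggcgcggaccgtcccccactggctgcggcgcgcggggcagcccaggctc
FGFR2 chr10:121598459-121598694, minus strand: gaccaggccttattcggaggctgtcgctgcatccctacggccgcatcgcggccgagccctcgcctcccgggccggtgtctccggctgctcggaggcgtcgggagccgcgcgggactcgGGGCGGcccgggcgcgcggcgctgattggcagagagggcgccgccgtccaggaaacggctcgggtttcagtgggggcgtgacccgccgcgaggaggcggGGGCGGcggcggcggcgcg
FGFR4 chr5:177086665-177086904, plus strand: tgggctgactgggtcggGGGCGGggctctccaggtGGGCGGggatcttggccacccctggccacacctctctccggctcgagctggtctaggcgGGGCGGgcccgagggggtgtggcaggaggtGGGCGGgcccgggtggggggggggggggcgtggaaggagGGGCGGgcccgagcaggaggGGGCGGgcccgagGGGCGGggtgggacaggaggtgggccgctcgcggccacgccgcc
All 3 stretches were rich in G and C, at 86.8% for FGFR3, 78.0% for FGFR2 and 80.0% for FGFR4, beside a median of 58.0% over 35116 human promoters. The core of the GC box occurred 8 times in FGFR3, 7 times in FGFR4 and 2 times in FGFR2, on either strand and without overlap. It was present in 42.6% of all promoters read over 250 bases, so the match is a description only. Neither TATAAA, which 10.7% of promoters held, nor the ETS core CCGGAAG (8.52%) nor the TCF core CTTTGAT (2.26%) was found in any of the 3 stretches on either strand. The CCAAT box, present in 32.0% of promoters, occurred 1 time, in FGFR2. FGFR2 and FGFR4 have 5 and 2 RefSeq starts in the table, and the start nearest the gene's annotated 5′ end was used. FGF4, FGF8, FGF17, FGF19 and FGFR1 have no entry there.

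To compare levels between genes, CPM was divided by exon length in kilobases (kb), the length being the union of all annotated exons. In E8 control the order of the means was FGFR1 (43.6 CPM per kb), FGF2 (19.9), FGFR4 (13.5), FGFR3 (11.4), FGF19 (9.65), FGFR2 (6.49), FGF4 (1.38), FGF13 (0.996), FGF8 (0.872) and FGF17 (0.0994). FGF13 and FGF8 overlapped in range there, and every other pair of neighbours was apart. In PEG and HS the order was FGFR1 (33.6 CPM per kb), FGF19 (16.6), FGFR4 (15.2), FGF2 (13.5), FGFR2 (4.46), FGFR3 (2.85), FGF13 (1.18), FGF8 (0.645), FGF4 (0.432) and FGF17 (0.130). FGF19 and FGFR4 overlapped in range, and the other neighbours did not. FGFR1 was first and FGF17 last in both media. FGF2 led the ligands in E8 control, whereas FGF19 led them in PEG and HS. With the longest transcript as length, FGFR4 and FGF2 came after FGFR1 in control, with overlapping ranges. FGFR2 (17.5 CPM per kb) then stood above FGFR3 (12.9) and FGF19 (9.65) in control, without overlap. In PEG and HS, FGFR4 (23.7) stood above FGF19 (16.6), also without overlap. FGF2 and FGF19 have the same length by either measure, 6801 and 1821 bases, so their order could not change. Before division by length, FGF2 was the higher in PEG and HS, at 91.5 CPM against 30.3 CPM for FGF19.

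**Figure D3:**
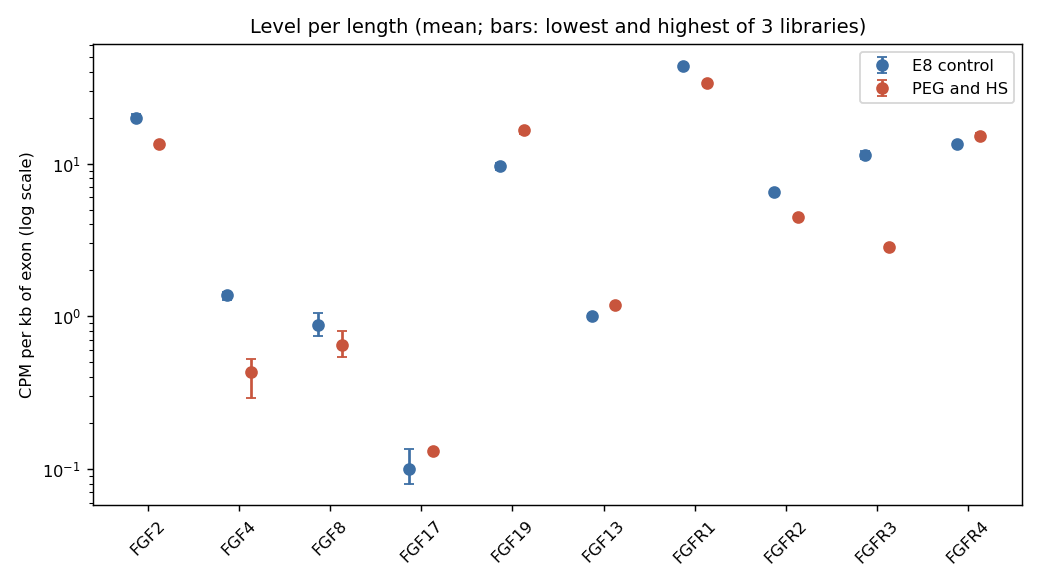
Level of the 10 FGF genes in CPM per kb of exon on a log axis; points are means of 3 libraries of E8 control (blue) or PEG and HS (red), and bars run from the lowest to the highest library. FGF19 stands at 9.65 in control and 16.6 in PEG and HS, and FGF2 at 19.9 and 13.5.

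The make-up of the receptor pool followed from these levels. Summed over the 4 receptors, the level was 56.1 ± 1.57 CPM per kb in PEG and HS and 75.0 ± 0.886 CPM per kb in E8 control (SD, n = 3). FGFR3 made up 5.12%, 4.75% and 5.37% of that sum in the PEG and HS libraries and 14.2%, 16.0% and 15.6% in the control libraries. FGFR4 made up 26.8%, 27.5% and 27.2% against 18.4%, 17.8% and 17.7%. The mean shares in PEG and HS and in control were 5.08% and 15.2% for FGFR3 and 27.1% and 18.0% for FGFR4. Shares of one sum must balance, and the level of FGFR4 itself was 15.2 and 13.5 CPM per kb while the sum was 56.1 and 75.0, so its larger share came mostly with the lower levels of the other receptors. FGFR1 held most of the pool in both media, at 59.8 ± 0.385% and 58.1 ± 0.559% (SD, n = 3). FGFR2 held 7.94 ± 0.0637% and 8.65 ± 0.193% (SD, n = 3). No share overlapped between the media, and each gave p = 0.1 in the two-sided exact permutation test, the smallest p that 3 against 3 libraries allow. The sizes depend on the length used. With the longest transcript, FGFR3 held 2.43% and 7.48% and FGFR4 18.0% and 12.2%. FGFR1 held 70.5% and 70.2% with overlapping libraries (exact permutation p = 0.3). FGFR2 held 9.13% and 10.2%, which put it above FGFR3 in control, the reverse of their order with the union of exons.

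**Figure D4:**
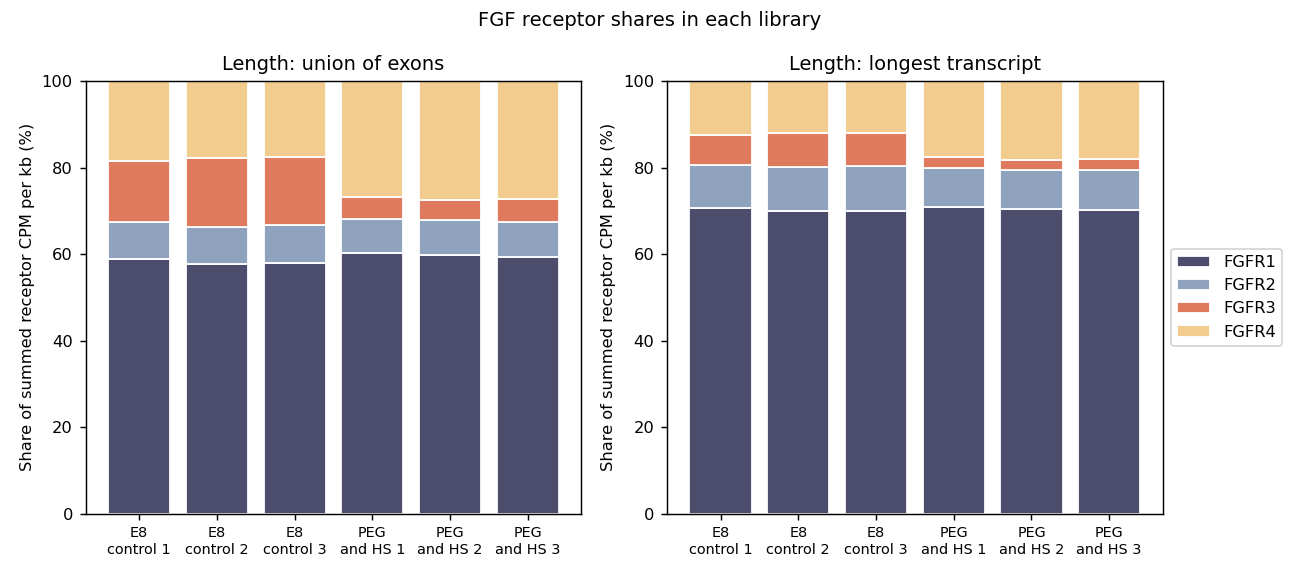
Share of each FGF receptor in the summed receptor level (CPM per kb, in percent) in each of the 6 libraries, with the union of exons (left) or the longest transcript (right) as gene length. On the left FGFR3 takes 14.2% to 16.0% in E8 control and 4.75% to 5.37% in PEG and HS, and FGFR4 takes 17.7% to 18.4% and 26.8% to 27.5%; on the right the same receptors move the same way by less.

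The genes with the profile most like each of the strongly changed members were found over the 6 libraries by the root mean square (RMS) difference of centred log2(CPM + 0.5), among 11366 genes. For FGFR3 they were APELA, a peptide ligand of the apelin receptor (RMS difference 0.072), NPTX1, a secreted pentraxin (0.072), and ID4, an inhibitor of helix-loop-helix factors (0.085). APELA stood at 32.2, 31.6 and 33.0 CPM with the additives and at 115, 117 and 127 CPM in E8 control. For FGF4 they were NEBL, an actin-binding protein (0.159), C6orf141 (0.171) and FAT4, a giant cadherin (0.180). NEBL stood at 4.30, 4.18 and 3.93 CPM with the additives and at 12.5, 11.5 and 12.6 CPM in control. The profiles of the FGF4 neighbours lay farther off than those of FGFR3, and FGF4 had far fewer reads. The log2 fold changes of NEBL, C6orf141 and FAT4 were -1.56, -1.24 and -1.24, beside -1.67 for FGF4. Candidates had a mean of at least 5 CPM, above the mean of FGF4 in either medium. The measure used the same 6 libraries, so it largely reflects the difference between media already given.

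Outside the 10 genes, few genes of the family differed. Of 16 other FGF genes, 14 were tested and 1 was called, beside 25.3% of all tested genes. Of the 16, 12 were under 1 CPM in every library. FGF12, an intracellular relative of FGF13, rose from 9.97, 9.33 and 9.62 CPM in E8 control to 13.4, 14.1 and 14.9 CPM with the additives (log2 fold change 0.55, SE 0.068, edgeR adjusted p = 1.99e-05). The other genes of that intracellular branch were not called. FGF11 was at 18.1 ± 0.466 CPM with the additives and 20.2 ± 1.29 CPM in control (SD, n = 3; log2 fold change -0.15, edgeR adjusted p = 0.0699). Its libraries did not overlap between the media. Other genes hold 81.4% of the 31-base sequences of FGF11, so its reads may not be fully separated from theirs. FGF14 was under 1 CPM. Adding genes of shared sequence together also called FGF20, and leaving out the second control library also called FGF22, which made 2 called genes in either case. The median log2 fold change of the 14 tested genes was 0.01, beside 0.003 for all tested genes.

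Proteins that present FGFs to their receptors or modulate them moved both ways. Of 13 co-receptor, decoy and carrier genes, 11 were tested, 2 were higher and 4 lower, beside 12.2% higher and 13.1% lower over all tested genes. The median log2 fold change was 0.05 beside 0.003 for all tested genes. FLRT3, a transmembrane protein that binds FGF receptors, fell from 6.45, 5.91 and 5.93 CPM to 2.55, 2.37 and 1.80 CPM (log2 fold change -1.44, SE 0.13, edgeR adjusted p = 1.06e-06). Its relative FLRT2 fell by 0.48 on the log2 scale, and FGFBP3, a carrier that binds FGF in the matrix, fell by 0.41. The fourth called lower was N-cadherin (CDH2, -0.25), named after its value was seen. L1CAM, an adhesion protein that can engage FGF receptors, was higher by 0.58 on the log2 scale, and ANOS1, a matrix protein that binds FGFR1 and heparan sulfate, by 0.28. KLB, the beta-Klotho co-receptor that FGF19 uses, was at 0.620 ± 0.251 CPM with the additives and 0.496 ± 0.0719 CPM in control (SD, n = 3; edgeR adjusted p = 0.594). FGFRL1, a receptor without a kinase domain, was at 17.3 and 16.1 CPM (log2 fold change 0.10, edgeR adjusted p = 0.303).

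The relay from receptor to ERK differed little. Of 21 genes, 3 were higher and 3 lower, a share near the 25.3% called over all tested genes, and the median log2 fold change was 0.004. Their differences were at most 0.26 on the log2 scale, which SHC1, an adaptor, reached (SE 0.03, edgeR adjusted p = 8.90e-06). The exchange factor SOS1 and the phospholipase PLCG1 were higher by 0.10 each, with edgeR adjusted p-values of 0.0438 and 0.0163. ERK1 (MAPK3) fell by 0.18, the docking protein FRS2 by 0.17 and MEK2 (MAP2K2) by 0.12 on the log2 scale. SOS1, PLCG1, FRS2 and MAP2K2 each lost the call under 1 or more left-out libraries, and SOS1 also with DESeq2 (adjusted p = 0.101) and with the filterByExpr filter (adjusted p = 0.0517). The count of called relay genes fell to 3 without the first PEG and HS library or without the third control library.

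The feedback inhibitors and transcriptional targets of FGF and ERK were mostly higher in PEG and HS, while the receptors and FGF2 and FGF4 were mostly lower. Of 19 genes, 15 were higher, 2 lower and 2 not called (DUSP4 and CCND1), beside 12.2% higher and 13.1% lower over all tested genes. The median log2 fold change was 0.51 beside 0.003 for all tested genes. Their summed level was 1947 to 1976 CPM with the additives and 1364 to 1419 CPM in E8 control. The largest rises were in DUSP5, a phosphatase of ERK (0.83 on the log2 scale), IL17RD, an inhibitor also called SEF (0.81), and SPRY4, a Sprouty protein (0.79). EGR1, an immediate early transcription factor that ERK induces, was at 8.75, 8.46 and 8.45 CPM with the additives and at 33.9, 30.8 and 31.6 CPM in control (log2 fold change -1.91, SE 0.06, edgeR adjusted p = 4.86e-12). PHLDA1 fell by 0.35 on the log2 scale. FOS, another immediate early gene, was among the 15 that rose, as were FOSL1 and IER3. They were higher by 0.53, 0.53 and 0.54 on the log2 scale, and were named after their values were seen. The list thus held a strong fall beside its 15 rises. It was chosen with earlier results of these data known, so its counts are a description only.

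Enzymes that build and edit heparan sulfate, the natural counterpart of the added heparin, also moved both ways. Of 28 genes, 27 were tested, 6 were higher and 10 lower, beside 12.2% higher and 13.1% lower over all tested genes, and the median log2 fold change was -0.02. SULF1, which removes sulfate groups from the chains outside the cell, was at 29.6 ± 1.03 CPM with the additives and 20.1 ± 2.02 CPM in control (SD, n = 3; log2 fold change 0.56, SE 0.066, edgeR adjusted p = 1.18e-05). Heparanase (HPSE), which cuts the chains, was higher by 0.46, and the 3-O-sulfotransferase HS3ST4 by 0.28. The related enzymes HS3ST2, HS3ST3B1 and HS3ST5 fell by 0.86, 0.61 and 0.52 on the log2 scale. HS3ST4 lost its call with DESeq2 (adjusted p = 0.0746), without the third PEG and HS library and without the first or the third control library.

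**Figure D5:**
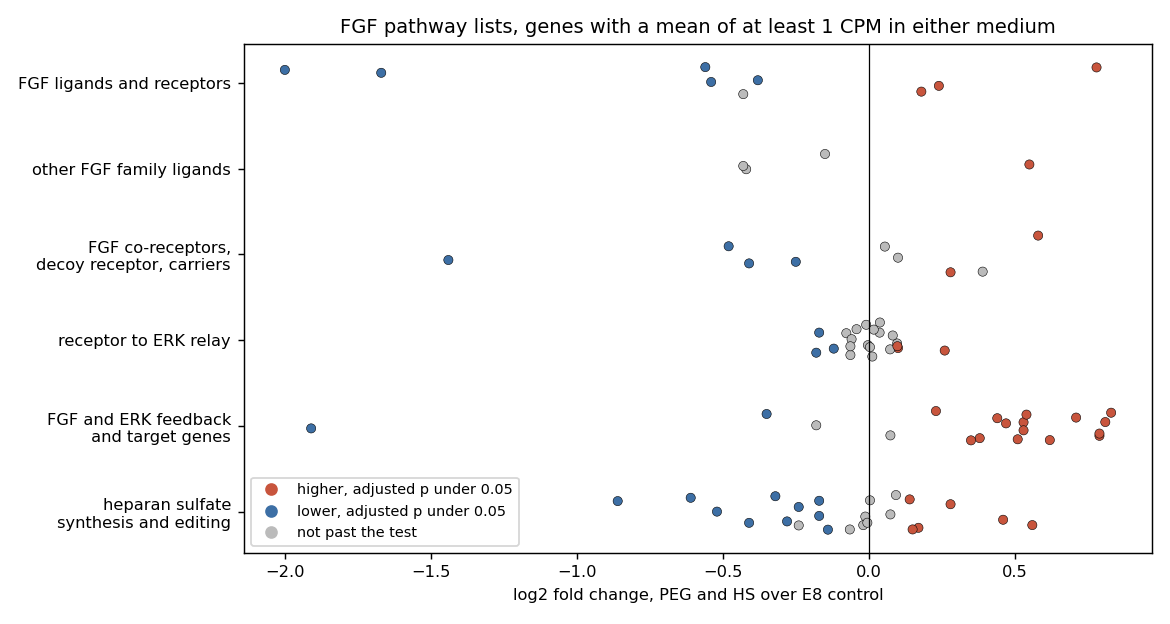
Log2 fold change of PEG and HS over E8 control for single genes (points) of the FGF ligands and receptors and of 5 pathway lists, for tested genes with a mean of at least 1 CPM in either medium; vertical scatter within a row only separates points. Feedback and target genes lie mostly above 0 with EGR1 at -1.91 far below, and relay genes lie between -0.18 and 0.26.

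Markers of other cell types were read beside these results. For each list, the counts called stand beside 12.2% higher and 13.1% lower over all tested genes. In a list of 21 neuroectoderm and neural plate genes, 2 were higher, 12 lower and 7 not called, and none was at 0 in every library. Their summed level was 672.1 to 711.1 CPM with the additives and 908.0 to 937.4 CPM in E8 control, and without the abundant NES it was 140.8 to 149.1 CPM and 270.4 to 283.9 CPM. This was the direction of FGFR3, FGF4, FGF2, FGFR2, FGFR1 and FLRT3, and its part in their falls was not tested. The neuroectoderm list holds SOX1, OLIG3, LHX5 and OTX2, which the paper reports as lower in these same data. Its counts and sums are therefore not independent of that report. OTX2 alone had a mean of 18.6 CPM with the additives and 79.4 CPM in control. For the remaining lists, the sums are given first with and then without the most abundant gene, each with the additives and then in control. Of 9 midbrain and hindbrain border genes, 2 were higher and 2 lower, with sums of 34.7 to 36.4 CPM and 28.2 to 29.0 CPM, and of 17.9 to 18.7 CPM and 18.5 to 19.2 CPM without GBX2. Of 12 endoderm genes, 10 were tested and 1 was lower, with sums of 8.46 to 9.22 CPM and 11.6 to 13.7 CPM, and of 6.05 to 6.74 CPM and 7.98 to 9.64 CPM without HHEX. Of 14 primitive streak and mesoderm genes, 12 were tested, 1 was higher and 2 lower, and MSGN1 was at 0 throughout. Their sums were 74.5 to 77.6 CPM and 68.8 to 72.3 CPM, and 16.1 to 17.3 CPM and 17.2 to 18.0 CPM without KDR. Of 14 trophectoderm and amnion genes, 11 were tested, 1 was higher and 5 lower, and CGA was at 0 throughout. The higher sum of that list, 443.2 to 480.2 CPM against 366.6 to 370.6 CPM, was that of the keratin KRT18. Without it the sums were 18.71 to 19.95 CPM and 34.36 to 36.72 CPM, lower with the additives. Of 8 neural crest genes, 2 were higher and 1 lower, with sums of 278.7 to 287.3 CPM and 269.6 to 275.8 CPM, and of 134.8 to 145.5 CPM and 128.1 to 134.6 CPM without ERBB3. The part of these lists in the results for FGF19, FGF4 and the others was not tested.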

How the data were processed

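RNA was taken from cells in each medium and made into 3 libraries per medium with a stranded poly(A) kit, per the labels. The authors deposited a raw read count per gene for each library. Per the methods the reads went through the nf-core/rnaseq pipeline. The submitters' processing notes name Trim Galore 0.6.7, STAR 2.6.1 and GRCh38, and the counting tool and its strand setting were not given in the sources used here. Counts were read as deposited. Of 19977 Ensembl identifiers, 19916 matched GENCODE 44 and 61 did not. A gene was kept if its counts summed to 10 or more (16505 genes), libraries were scaled by TMM, and edgeR 4.0.16 (glmQLFit and glmQLFTest, R 4.3.3) compared PEG and HS with Control without covariates. The SE was obtained from the log2 fold change and the square root of the F statistic, and CPM uses the TMM-scaled library size. The common biological coefficient of variation was 3.12%.

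Library totals were 33534183, 28148630 and 33849198 counts in PEG and HS and 26991279, 32686749 and 36185138 counts in Control. No pair of libraries agreed within sampling noise. Same-numbered libraries did not deviate together over 13557 genes (r = -0.0147, 0.0277 and 0.0596), so the numbers were not taken as pairs. The fits were tested on simulated data.

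DESeq2 1.42.0, limma-voom (limma 3.58.1), other scalings and filters, a replicate block, left-out libraries, addition of genes that share at least 50% of their 31-base sequences, a test against a 1.5-fold change and an adjusted p under 0.01 were alternatives. Receptor shares were compared by exact permutation. All 10 members are named. From each list, the called genes that changed most, up to 3 in each direction with a mean of at least 1 CPM, are named, and for members with an absolute log2 fold change over 1 the 3 nearest profiles among genes with a mean of at least 5 CPM. At most 2.72% of the 31-base sequences of a member occur in another gene. The members and lists were chosen with earlier results of these data known.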

Additional observations from a re-analysis of the deposited data

How the results depend on the processing

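Direction and call were the same for all 10 FGF genes under each of the 14 alternatives (140 values). FGFR3 ranged from -2.05 to -1.97, FGF4 from -1.85 to -1.44 and FGF19 from 0.73 to 0.83 on the log2 scale. The least certain calls were FGF13 and FGFR4, with adjusted p-values of at most 0.0184 and 0.0127. Of the 322 values of named list genes, 306 kept their call, 16 lost it and 0 reversed; the alternatives for the lists were chosen after seeing the data. With a test against a 1.5-fold change, 3 of the FGF genes (FGF19, FGF4 and FGFR3) and 264 of all genes (30 higher, 234 lower) were called. That test called 0 other FGF genes, 1 co-receptor gene (FLRT3), 0 relay genes, 6 feedback and target genes and 0 heparan sulfate genes. At an adjusted p under 0.01, 2601 genes in all, 2 relay genes and 10 heparan sulfate genes were called. Adding shared-sequence genes together gave 2 other FGF genes. Leaving out 1 library gave 1 to 2 other FGF genes, 3 to 6 relay genes, 12 to 14 heparan sulfate genes and 3111 to 3671 genes in all. DESeq2 called 3367 genes and limma-voom 4172. Of the heparan sulfate genes, DESeq2 called 13 and limma-voom 17, where the main fit called 16. With the replicate block, 8 FGF genes and 4444 genes in all were called, and the block changed no call among the FGF genes. With the longest transcript as length, the share differences (PEG and HS minus control) were 0.319 percentage points for FGFR1, -1.06 for FGFR2, -5.05 for FGFR3 and 5.79 for FGFR4, in place of 1.69, -0.713, -10.2 and 9.19; a shorter length raises a gene's level by construction. Depth limits FGF8 and FGF17, with 211 and 73 reads over all libraries.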
